A study of Mus musculus with 2 samples.

Results

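The antioxidant response genes described here are 10 genes that are widely used as readouts of the transcription factor NRF2: Hmox1, Nqo1, Gclm, Gclc, Slc7a11, Txnrd1, Srxn1, Gsr, Prdx1 and Gsta3. They were chosen by gene symbol, and all 10 were found among the 32544 genes of the count tables. Their transcripts were counted by single-cell mRNA sequencing (scRNA-Seq) in murine bone marrow-derived monocytes (BMDMs) a day into induction toward osteoclasts (OCs), in medium with 50 ng/ml M-CSF, the growth factor of the monocyte lineage, and 100 ng/ml RANKL, the OC-inducing cytokine. One library was labelled CONTROL and the other LysM-Cre;Arid1afl/fl, called mutant below, and both cultures received the same cytokines. LysM-Cre drives the Cre recombinase from the lysozyme locus in myeloid cells, where it deletes floxed exons of Arid1a, a DNA-binding subunit of the BAF chromatin remodeler. The methods for the cultures name femoral marrow of mice a few weeks old, of either sex in the study as a whole. The alleles of the control animal, and the exact age, the sex and the number of animals behind each library, are not given in the sources used here. With 1 library per genotype, genotype, culture and sequencing run cannot be told apart, no test across samples was possible, and every difference describes these 2 libraries.

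NRF2, encoded by Nfe2l2, is held at low levels by KEAP1, which marks it for degradation. Reactive oxygen species (ROS) and electrophiles modify KEAP1, and NRF2 then binds antioxidant response elements together with small MAF proteins, while BACH1 occupies the same elements as a repressor, above all at Hmox1. RANKL signalling raises ROS in OC precursors, ROS act there as a signal that favours differentiation, and NRF2 is known as a restraint on OC formation.

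The members fall into 4 roles. Glutathione supply rests on Slc7a11 (cystine importer), Gclc and Gclm (catalytic and modifier subunits of the enzyme that starts glutathione synthesis) and Gsr, which returns oxidized glutathione to its reduced form. Peroxide removal through thiols rests on Prdx1 (peroxiredoxin), Srxn1 (sulfiredoxin, which repairs overoxidized peroxiredoxin) and Txnrd1 (cytosolic thioredoxin reductase). Hmox1 encodes the inducible heme oxygenase. Nqo1 (quinone reductase) and Gsta3 (an alpha class glutathione transferase) detoxify electrophiles.

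The members are spread over the genome, as placed by GENCODE M39 on GRCm39. Hmox1 lies on chromosome 8 from 75820241 to 75827217, and Nqo1 on the same chromosome from 108113835 to 108129934. Gsr lies there too, from 34142551 to 34188192. Gclm lies on chromosome 3 from 122039126 to 122065061, and Slc7a11 on the same chromosome from 49846975 to 50398070. Gclc lies on chromosome 9 from 77661797 to 77701770. Txnrd1 lies on chromosome 10 from 82669785 to 82733546. Srxn1 lies on chromosome 2 from 151947436 to 151957687, Prdx1 on chromosome 4 from 116532123 to 116558398, and Gsta3 on chromosome 1 from 21310806 to 21335885. Gclm, Slc7a11, Txnrd1 and Gsta3 each overlap another counted gene on the opposite strand, and Txnrd1 also one on its own strand (Eid3). The use of strand in counting was not stated, so the counts of these 4 members are less certain. Reads could also be split between Gsta3 and near-identical alpha class genes, although Gsta1, Gsta2, Gsta4 and Gsta5 each held at most 15 UMIs per library.

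To show what the members share in sequence, the 250 bases upstream of the start were searched in the RefSeq promoter table (build GRCm38.p6). It held 7 of the 10 members with 9 starts (not Hmox1, Gclc and Gsr). The core of the antioxidant response element was searched as TGACNNNGC or TGAGNNNGC on both strands. It was present at 6 of the 9 starts, which belong to 6 of the 7 members with an entry, and in 23.0% of the 32851 promoters in the table. Nqo1 was the member without a match, and in Txnrd1 only the second start had one. The AP-1 site TGAGTCA, which can overlap that core, was present in Srxn1 and Prdx1, and in 4.46% of promoters. A match in this window is a description of letters and not a bound site. The promoters printed are those of the 3 members that differed most between libraries among cells with OC transcripts and have an entry (Slc7a11, Gsta3 and Prdx1), of Srxn1, which holds the most matches, and of the second start of Txnrd1, which showed the opposite pattern. Each runs 5′ to 3′ on the strand of the gene, and capitals mark the matches on either strand. They span chr4:116685349-116685598 (Prdx1), chr2:152105274-152105523 (Srxn1), chr1:21240335-21240584 (Gsta3), chr3:50443614-50443863 (Slc7a11, minus strand) and chr10:82858956-82859205 (Txnrd1).
Prdx1: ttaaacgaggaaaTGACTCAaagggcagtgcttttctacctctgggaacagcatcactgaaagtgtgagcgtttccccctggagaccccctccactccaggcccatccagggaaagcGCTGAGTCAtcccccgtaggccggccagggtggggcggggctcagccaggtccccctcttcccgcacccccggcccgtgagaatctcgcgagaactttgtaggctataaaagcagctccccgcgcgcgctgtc
Srxn1: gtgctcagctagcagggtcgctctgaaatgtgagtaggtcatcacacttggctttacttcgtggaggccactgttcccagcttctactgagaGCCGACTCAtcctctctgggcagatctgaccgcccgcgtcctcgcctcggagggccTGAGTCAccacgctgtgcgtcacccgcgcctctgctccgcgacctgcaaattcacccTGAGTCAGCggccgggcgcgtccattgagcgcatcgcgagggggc
Gsta3: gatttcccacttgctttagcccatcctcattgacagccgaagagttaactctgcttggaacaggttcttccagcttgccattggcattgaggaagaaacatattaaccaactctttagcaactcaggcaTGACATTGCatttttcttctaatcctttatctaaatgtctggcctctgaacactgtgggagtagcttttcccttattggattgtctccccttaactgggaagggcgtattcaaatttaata
Slc7a11: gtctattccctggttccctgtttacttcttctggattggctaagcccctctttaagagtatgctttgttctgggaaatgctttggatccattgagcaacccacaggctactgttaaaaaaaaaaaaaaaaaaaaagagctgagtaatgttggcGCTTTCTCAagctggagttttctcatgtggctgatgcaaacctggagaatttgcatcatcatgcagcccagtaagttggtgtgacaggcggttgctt
Txnrd1: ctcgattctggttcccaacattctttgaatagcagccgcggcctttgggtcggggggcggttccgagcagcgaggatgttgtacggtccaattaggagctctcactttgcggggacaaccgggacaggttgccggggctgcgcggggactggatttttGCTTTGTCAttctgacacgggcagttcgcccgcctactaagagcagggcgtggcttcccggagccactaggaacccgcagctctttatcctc
The match in Prdx1 began 133 bases before the start and overlapped its AP-1 site. Srxn1 had 2 matches, of which the nearer began 45 bases before the start and also overlapped an AP-1 site. The match in Gsta3 began 121 bases, that in Slc7a11 97 bases and that in Txnrd1 92 bases before the start.

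Of the cells, 6269 control and 5663 mutant ones had at least 500 detected genes and at most 10% mitochondrial UMIs, with medians of 23978 and 21734 UMIs (unique molecular identifiers, 1 per captured mRNA). The median mitochondrial share was 2.04% and 1.27%, and 8 cell barcodes occurred in both libraries. Arid1a was at 51.9 counts per 1000000 UMIs (CPM) in the control library and 20.4 CPM in the mutant library. Because the kit reads the 3′ end, outside the floxed exons, this count does not check the deletion itself. Of the defining monocyte and macrophage markers, all 6 were detected in both libraries. Neutrophil markers summed to 267 CPM in the control and 2000 CPM in the mutant library. Stromal markers were at 6.13 and 11.6 CPM, and class II markers at 28.7 and 116 CPM. Lymphoid markers stood at 0.196 and 1.13 CPM, with 2 of 5 at 0 in each library, and erythroid markers at 0.0489 and 0 CPM.

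A level is the UMIs of a gene summed over the cells of a library or state, per 1000000 UMIs of those cells. Each molecule gives 1 tag at its 3′ end, so levels were not divided by transcript length, and genes were not ranked by level. Ranges given in parentheses span 95% and cover only the error of counting. A gene was called higher or lower when its mean level in the pair was at least 20 CPM and its ratio at least 1.5-fold.

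Over all cells, the members did not differ in 1 direction. Gsta3 was at 29.4 CPM in the control and 48.1 CPM in the mutant library, a log2 ratio of 0.71 (0.66 to 0.76). It was the 1 member called higher, against 12.6% of all 5219 genes tested, and 0 members were called lower, against 5.61%. Slc7a11 was at 11.4 CPM and 22.1 CPM, a log2 ratio of 0.95 (0.87 to 1.04), but its mean was below 20 CPM. The remaining 9 members passed that minimum, with a median log2 ratio of 0.10 beside 0.02 over all genes. The sign of this median depended on the scaling, and it was -0.0047 with totals that lack mitochondrial and ribosomal protein genes.

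Gclm, Srxn1 and Prdx1 lay on the higher side in the mutant library without reaching 1.5-fold. Gclm was at 334 CPM and 438 CPM (log2 ratio 0.39, 0.38 to 0.41). Srxn1 was at 115 CPM and 151 CPM (log2 ratio 0.39, 0.36 to 0.42). Prdx1 was at 3901 CPM and 4596 CPM (log2 ratio 0.24, 0.23 to 0.24). Gsr was close to equal, at 143 CPM and 153 CPM, and its log2 ratio of 0.10 was -0.0047 under that other scaling. On the lower side were Txnrd1, at 444 CPM and 332 CPM (log2 ratio -0.42, -0.43 to -0.40), and Hmox1, at 230 CPM and 194 CPM (log2 ratio -0.25, -0.27 to -0.23). Nqo1 was at 41.0 CPM and 36.7 CPM, and Gclc at 34.9 CPM and 34.1 CPM, with an interval of its log2 ratio that includes 0 (-0.09 to 0.02). The subunits of glutamate-cysteine ligase thus differed from each other, Gclm being higher and Gclc close to equal.

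To ask whether these levels depended on entry into the OC lineage, cells were divided by the transcripts of Ctsk, Mmp9, Acp5 and Dcstamp, which encode a bone matrix protease, a gelatinase, the acid phosphatase TRAP and a fusion receptor. The OC gate took cells that held 3 or more UMIs of these genes once each cell was thinned to 5000 UMIs; 168 control and 351 mutant cells with fewer UMIs in all stayed out of the states. The gate held 596 control cells, 9.77% (9.04% to 10.5%), and 182 mutant cells, 3.43% (2.95% to 3.95%). In the control library 286 cells lay just below it with 2 UMIs and 161 just inside with 3 UMIs, and in the mutant library 241 and 78 cells did. Acp5 gave 44.8% of the gate UMIs in the control library and 64.2% in the mutant one, and Mmp9 25.1% and 8.91%. Within the gate, 6 OC markers summed to 1710 CPM in the control and 1127 CPM in the mutant library. The 6 monocytic markers summed to 3658 CPM and 5525 CPM in the gate, and to 13003 CPM and 7824 CPM outside it. Most of these UMIs were of Lyz2 (10803 CPM over all control and 5432 CPM over all mutant cells), the locus that carries the Cre, so its level between libraries need not follow cell state. Outside the gate, as in it, each of the other 5 was higher in the mutant library. Outside, Lgmn was at 137 CPM in control and 547 CPM in mutant cells, and Adgre1 at 158 CPM and 539 CPM. Csf1r was at 262 CPM and 403 CPM, Dab2 at 166 CPM and 232 CPM, and Cd68 at 481 CPM and 603 CPM. Gated mutant cells therefore carried fewer OC and more monocytic transcripts than gated control cells, and the part of this in the results that follow was not tested.

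**Figure D1:**
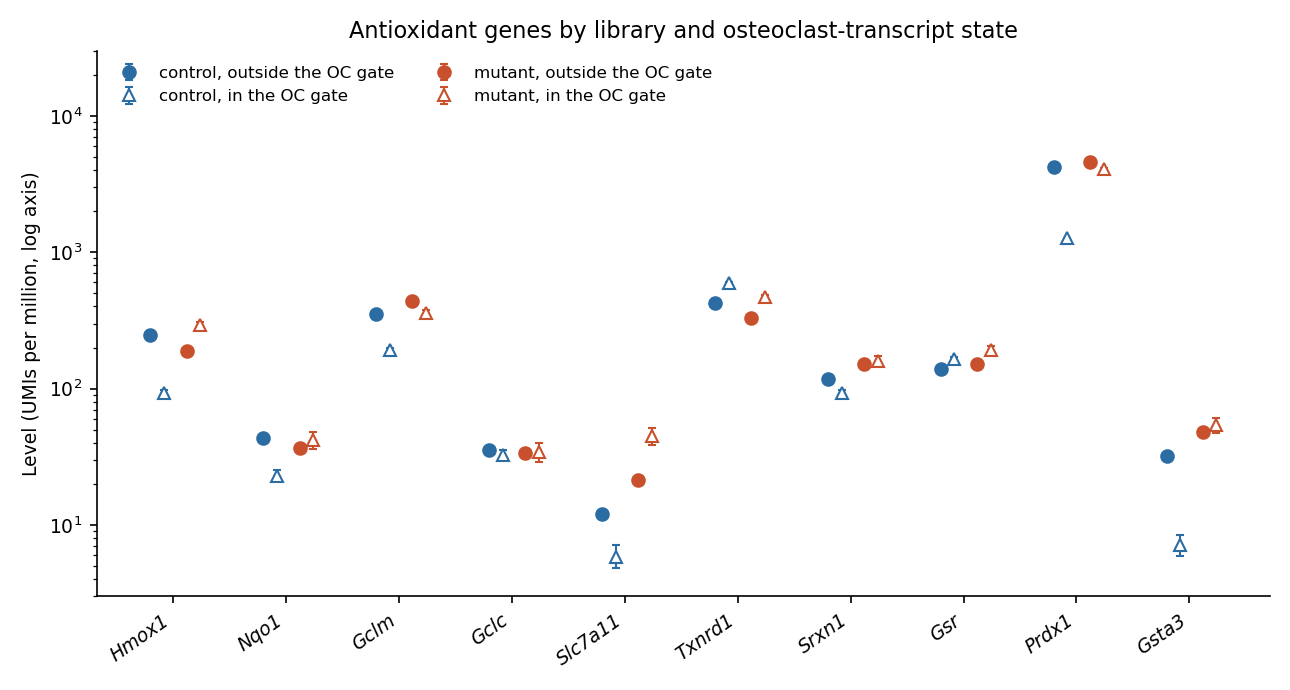
Levels of the 10 members in CPM, on a log axis, in the control (blue) and mutant (red) library, outside the OC gate (circles) and in it (triangles), with 95% counting intervals. The blue triangles of Prdx1, Hmox1 and Gsta3 lie far below the other points of their gene, whereas those of Txnrd1 and Gsr do not.

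In control cells, most members were lower in the OC gate. Prdx1 was at 4231 CPM outside and 1265 CPM in the gate, a log2 ratio of -1.74 (-1.76 to -1.72). Hmox1 was at 247 CPM outside and 93.6 CPM in the gate, a log2 ratio of -1.40 (-1.47 to -1.33). Nqo1 was at 43.3 CPM and 23.0 CPM (log2 ratio -0.91, -1.06 to -0.77), and Gclm at 352 CPM and 192 CPM (log2 ratio -0.88, -0.93 to -0.83). These 4 of the 8 members that passed the minimum were called lower, against 8.51% of 5063 genes, and 0 were called higher, against 5.19%. The median over the 8 was -0.62, beside 0.09 over all genes. Gsta3 and Slc7a11 had means below 20 CPM in this pair. Gsta3 was at 32.2 CPM outside and 7.12 CPM in the gate, a log2 ratio of -2.18 (-2.44 to -1.93), and Slc7a11 at 12.1 CPM and 5.87 CPM, a log2 ratio of -1.04 (-1.34 to -0.76).

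Txnrd1 and Gsr did not share this pattern. Txnrd1 was at 425 CPM outside and 595 CPM in the gate of the control library, a log2 ratio of 0.49 (0.46 to 0.52). Gsr was at 140 CPM and 164 CPM (log2 ratio 0.23, 0.18 to 0.29), and the interval for Gclc included 0. These enzymes use NADPH to keep a thiol pool reduced, thioredoxin for Txnrd1 and glutathione for Gsr. Srxn1 was in between, with a log2 ratio of -0.35 (-0.43 to -0.28).

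In mutant cells, the members were not lower as a group in the OC gate. Hmox1 was at 190 CPM outside and 294 CPM in the gate, a log2 ratio of 0.63 (0.55 to 0.71), opposite in sign to the control library. Slc7a11 was at 21.3 CPM and 44.6 CPM, a log2 ratio of 1.07 (0.86 to 1.28), also opposite in sign. These 2 of 10 members were called higher, against 2.67% of 5322 genes, and 0 were called lower, against 2.22%. Prdx1, the most reduced of the called members in the control gate, was at 4617 CPM outside and 4079 CPM in the gate (log2 ratio -0.18, -0.20 to -0.16). Gclm was at 442 CPM and 358 CPM (log2 ratio -0.31, -0.38 to -0.24), and the intervals of Nqo1, Gsta3, Srxn1 and Gclc included 0. Txnrd1 was at 328 CPM and 466 CPM, a log2 ratio of 0.51 (0.44 to 0.57), and Gsr had 0.34 (0.24 to 0.43). These NADPH-dependent reductases were thus on the higher side in the gate of both libraries, by less than 1.5-fold. The calls of Hmox1 and Slc7a11 rested on Acp5 in the gate: with Acp5 left out, 369 control and 56 mutant cells were gated and 0 members were called. Their log2 ratios were then 0.22 and 0.57, Prdx1 had -0.43, and Nqo1 (-0.26), Gsta3 (-0.38) and Srxn1 (-0.07) were below 0. In the control library the same gate gave 4 members lower and a median of -0.62.

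Compared between libraries in the OC gate, 7 of the 10 members were called higher in the mutant library, against 16.9% of 5265 genes, and 0 lower, against 11.5%. The median of the members was 0.88, beside -0.02 over all genes. Slc7a11 was at 5.87 CPM in gated control and 44.6 CPM in gated mutant cells, which is a log2 ratio of 2.93 (2.58 to 3.28). Gsta3 was at 7.12 CPM and 53.7 CPM, a log2 ratio of 2.92 (2.60 to 3.23). Both were below 20 CPM in gated control cells and passed the minimum only through gated mutant cells, with means of 25.2 CPM and 30.4 CPM. Prdx1 was at 1265 CPM and 4079 CPM, a log2 ratio of 1.69 (1.66 to 1.72). These and Hmox1 had the widest distances between the libraries. Hmox1 was at 93.6 CPM and 294 CPM, a log2 ratio of 1.65 (1.55 to 1.75). Gclm had 0.90 (0.82 to 0.99), Nqo1 0.86 (0.61 to 1.11) and Srxn1 0.79 (0.67 to 0.92). Gsr (0.22, 0.11 to 0.33), Gclc (0.06, -0.20 to 0.32) and Txnrd1 (-0.35, -0.42 to -0.29) were not called, and Gclc lay on either side of 0 depending on the scaling. Apart from Slc7a11 and Gsta3, the higher members covered glutathione synthesis (Gclm), peroxide removal (Prdx1 and Srxn1), heme breakdown (Hmox1) and quinone reduction (Nqo1). Thioredoxin reductase was at 595 CPM in gated control and 466 CPM in gated mutant cells.

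Outside the OC gate, 0 of the 9 members that passed were called in either direction, against 11.8% of genes higher and 4.84% lower. Slc7a11 did not pass there, with a mean of 16.7 CPM. Hmox1 was then lower in the mutant library, with a log2 ratio of -0.38 (-0.40 to -0.35), as were Txnrd1 (-0.37, -0.39 to -0.35) and Nqo1 (-0.24, -0.30 to -0.19). Prdx1 was at 0.13 (0.12 to 0.13) and Gsta3 at 0.57 (0.52 to 0.63), just under 1.5-fold. The log2 ratio in the gate exceeded that outside by 2.03 (1.92 to 2.13) for Hmox1 and 1.56 (1.54 to 1.59) for Prdx1. For Gsta3 the excess was 2.34 (2.03 to 2.65) and for Slc7a11 2.11 (1.76 to 2.46). Both passed the minimum in the gate only through gated mutant cells, and Slc7a11 did not pass outside it. The excess was 1.11 (0.86 to 1.36) for Nqo1, 0.57 (0.48 to 0.66) for Gclm and 0.44 (0.31 to 0.57) for Srxn1. For Gclc, Txnrd1 and Gsr its interval included 0.

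**Figure D2:**
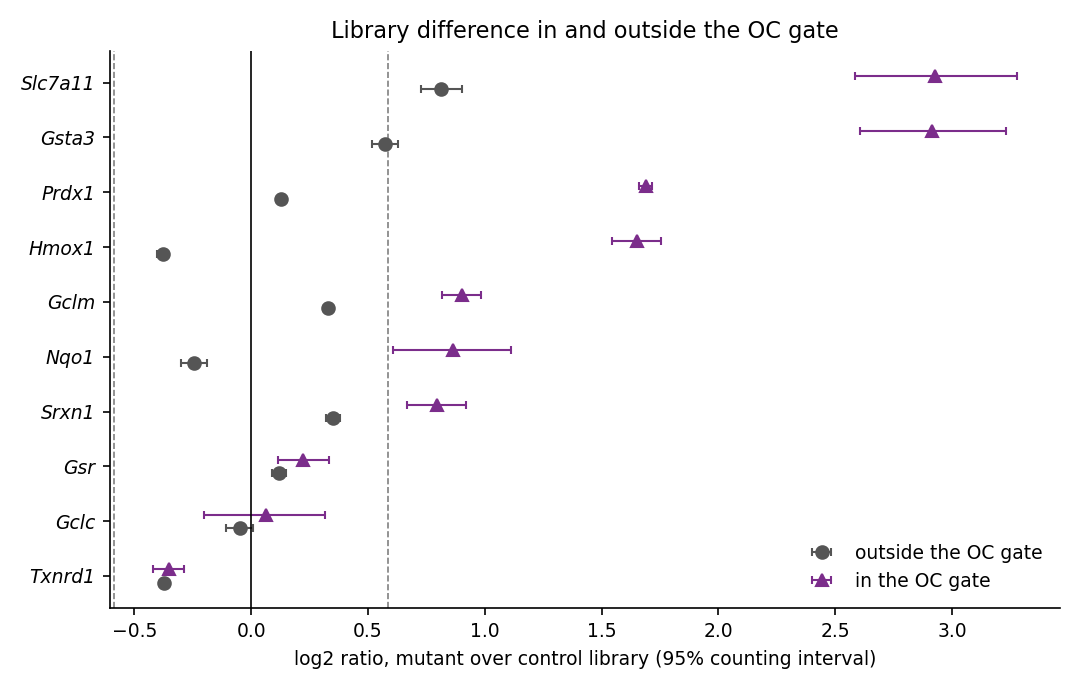
Log2 ratio of mutant over control for each member, outside the OC gate (grey circles) and in it (purple triangles), with 95% counting intervals; dashed lines mark 1.5-fold. In the gate 7 members lie to the right of the upper dashed line, and Txnrd1 lies at about the same negative value in both states.

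Markers of other cells were compared beside this difference. Neutrophil markers summed to 10.9 CPM in gated control and 400 CPM in gated mutant cells, class II markers to 37.9 CPM and 76.7 CPM, and stromal markers to 5.05 CPM and 0 CPM. Without cells holding at least 3 UMIs of any of these lists, 581 control and 169 mutant cells stayed in the gate, 7 members were called higher and the median was 0.90. Without the barcodes most like simulated doublets, 7 members were called higher and the median was 0.95. Both counts include Slc7a11 and Gsta3, which passed the minimum in the full OC gate only through mutant cells. Called members differed with the gate itself. With Acp5 left out the count was 5 and the median 0.69, and Nqo1 (0.49) and Slc7a11, whose mean was below 20 CPM, were no longer called. With a gate on unthinned counts, which took in 1710 control and 1217 mutant cells, the count was 4 and the median 0.43. Hmox1, with a log2 ratio of 0.29, Nqo1 with 0.072 and Srxn1 with 0.57 were then not called.

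The OC gate is a range and not a cell type, so levels were also followed over 5 classes of gate UMIs per cell (0, 1, 2, 3 or 4, and 5 or more). In the control library, Prdx1 was lower in each successive class, at 4419, 3831, 2796, 1682 and 996 CPM. Hmox1 followed the same order, at 253, 237, 193, 123 and 74.4 CPM. Gclm went from 363 CPM to 188 CPM. Txnrd1 had the opposite order, with 417, 442, 482, 562 and 617 CPM. The monocytic marker sum was 13561 CPM in the first class and 2485 CPM in the last.

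The mutant library showed a different course. Its Prdx1 levels were 4589, 4706, 4742 and 4831 CPM in the first 4 classes and 3159 CPM in the last. Hmox1 was at 185, 204, 210, 356 and 218 CPM, so that it peaked in the class of 3 or 4 UMIs. Slc7a11 peaked there too, at 18.7, 27.7, 38.4, 51.6 and 36.1 CPM. The libraries can also be set side by side within a class, although the last class has no upper limit and OC transcript content was not matched within it. With 5 or more UMIs, 351 control cells had 996 CPM and 75 mutant cells 3159 CPM of Prdx1, and 4.38 CPM and 44.8 CPM of Gsta3. Txnrd1 was at 326 CPM in the first and 523 CPM in the last mutant class, the same direction as in control cells. The monocytic marker sum was 7872 CPM in the first mutant class and 3772 CPM in the last, and Acp5 gave between 61.1% and 80.9% of gate UMIs in the mutant classes that hold any, against 35.5% to 45.7% in the control classes. That marker sum includes Lyz2, the locus of the Cre, so its level between libraries need not follow cell state. A sum without Lyz2 was not computed by class.

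**Figure D3:**
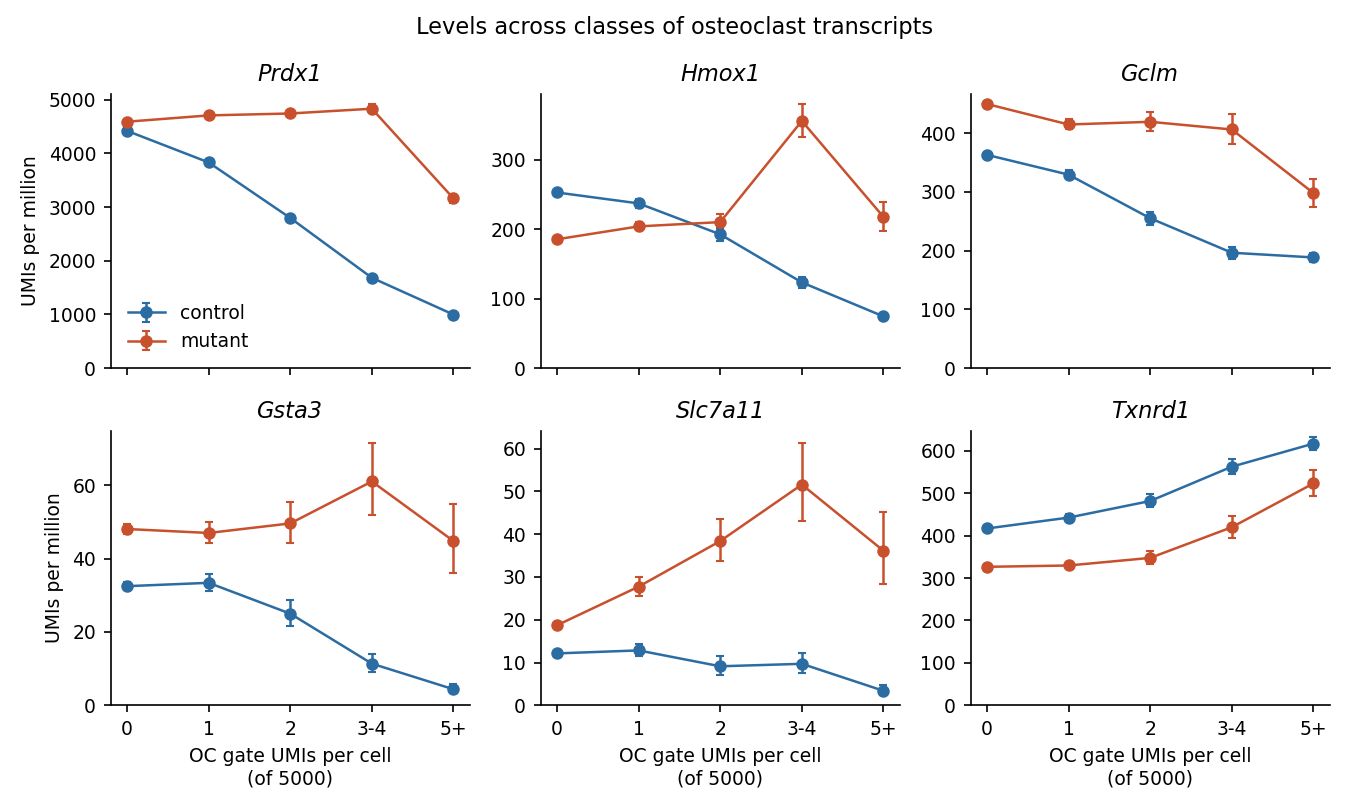
Levels of 6 members (linear axes from 0, CPM, 95% counting intervals) over classes of OC gate UMIs per cell at 5000 UMIs, in the control (blue) and mutant (red) library. Control Prdx1 descends from 4419 to 996 CPM while mutant Prdx1 stays between 4589 and 4831 CPM until the last class, and Txnrd1 ascends in both libraries.

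Shares of cells were also compared for the less abundant members. At 5000 UMIs per cell, Slc7a11 was detected in 2.01% (1.04% to 3.49%) of gated control cells and 19.8% (14.3% to 26.3%) of gated mutant cells. Outside the gate it was detected in 4.54% and 7.49%. Gsta3 was detected in 3.36% of gated control and 13.2% of gated mutant cells, beside 11.3% and 15.8% outside. In mutant cells its share was thus lower in the gate while its level was 53.7 CPM in and 47.9 CPM outside it, and the intervals of both measures overlapped between the states. Nqo1 was detected in 10.6% of gated control and 14.3% of gated mutant cells, beside 16.8% and 15.05% outside. Gclc was detected in 13.9% and 13.2% of gated cells, whose intervals overlap, beside 14.1% and 15.8% outside. Hmox1 was detected in 25.5% of gated control and 50.0% of gated mutant cells, and without thinning in 67.6% and 80.2%. No cell type in these cultures is known to lack these genes, so the share that free RNA gives was not measured for them.

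Division state was the second axis. The cycling gate took cells with at least 3 UMIs of Mki67, Top2a, Aurka and Cdk1 at the same depth, and it held 39.1% of control and 33.2% of mutant cells. Hmox1 was lower in cycling cells, at 266 CPM outside and 181 CPM in the cycling gate of the control library (log2 ratio -0.55, -0.58 to -0.52). In the mutant library it was at 235 CPM and 121 CPM (log2 ratio -0.95, -0.996 to -0.911), where it was the 1 member called lower, against 0.355% of genes, and 0 were called higher, against 5.35%. In the control library 0 members were called lower, against 0.415%, or higher, against 4.34%. Gclc was higher in cycling cells of both libraries, with log2 ratios of 0.53 (0.46 to 0.61) and 0.36 (0.28 to 0.45), as was Txnrd1 with 0.43 (0.41 to 0.46) and 0.22 (0.19 to 0.24). The remaining members had log2 ratios between -0.47 (Slc7a11, mutant library) and 0.29 (Nqo1, mutant library).

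Outside both gates, in 3367 control and 3420 mutant cells, 0 of 9 members were called, against 11.6% of genes higher and 4.59% lower in the mutant library. In the cycling gate alone, Gsta3 was called higher, against 12.9%, with 29.0 CPM in control and 43.5 CPM in mutant cells. Hmox1 was called lower there, against 5.11%, with 195.2 CPM and 120.3 CPM. The library difference in cells with OC transcripts was present in and outside the cycle. Among cells of the OC gate alone, 350 control and 128 mutant cells, 6 of 10 members were called higher, against 18.3% of genes, and 0 lower, against 12.4%, with Hmox1 at 106 CPM and 370 CPM and Prdx1 at 1363 CPM and 4332 CPM. Of these 6, Slc7a11 (7.44 CPM and 50.1 CPM) and Gsta3 (8.04 CPM and 51.4 CPM) passed the minimum only through the mutant cells. Among cells in both gates, 246 control and 54 mutant cells, 6 of 9 members were called higher, against 16.4%, and Txnrd1 lower, against 11.0%. Gsta3, at 6.01 CPM and 58.0 CPM in both gates, again passed only through the mutant cells. There Nqo1 was at 21.5 CPM in control and 59.2 CPM in mutant cells, with a log2 ratio of 1.46 (1.09 to 1.83). Txnrd1 in both gates was at 686 CPM and 442 CPM, and the former was its highest level in any state of either library. With 54 mutant cells, values in both gates rest on the fewest cells of any state.

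Some members also varied together from cell to cell. Over cells thinned to 5000 UMIs, Pearson's r of log(1 + UMIs) was 0.50 in 6101 control and 0.49 in 5312 mutant cells for Gclm and Prdx1. It was 0.46 and 0.40 for Hmox1 and Prdx1, and 0.39 and 0.31 for Hmox1 and Gclm. Over all 45 pairs the median was 0.10 in the control library and 0.11 in the mutant one. Txnrd1 and Prdx1 had -0.05 in control cells, the 1 pair below 0 in that library, and 0.14 in mutant cells. Cells of a library share its preparation, and sparse genes such as Slc7a11 and Gsta3 limit r, so these values are a description.

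**Figure D4:**
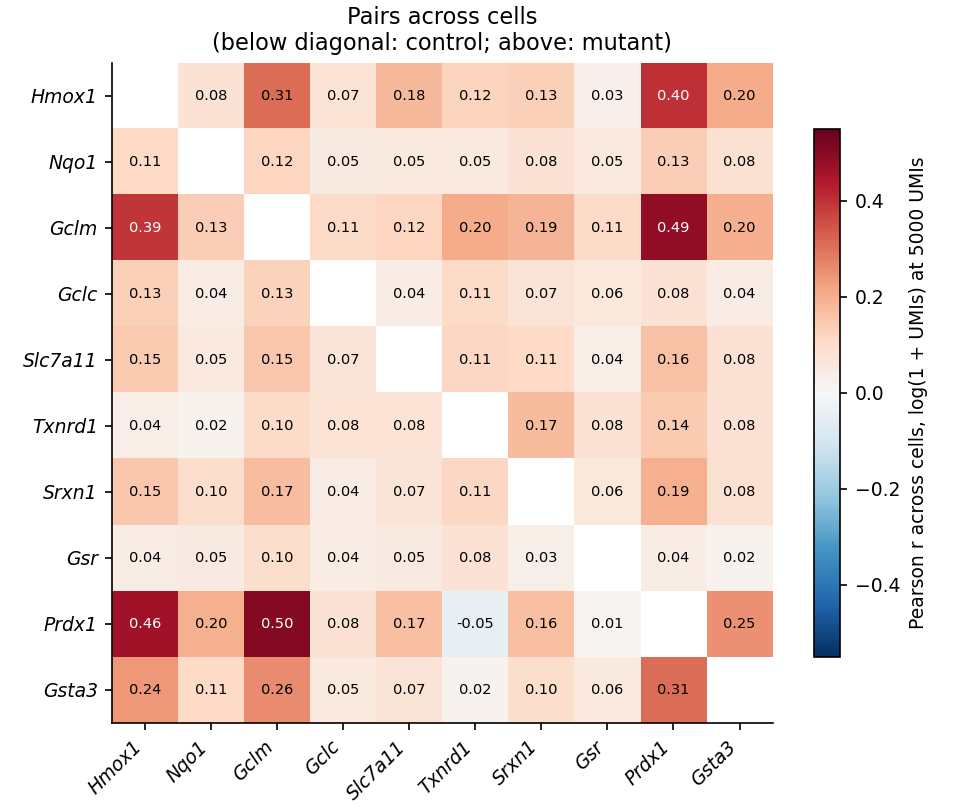
Pearson's r of log(1 + UMIs) at 5000 UMIs per cell for each pair of members, across control cells below the diagonal and mutant cells above it, coloured from blue (negative) to red (positive). Prdx1, Gclm and Hmox1 form the darkest block in both libraries, with r between 0.31 and 0.50.

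Hmox1 varied widely from cell to cell. At 5000 UMIs per cell the top 10% of cells held 56.8% of its UMIs in the control library and 56.9% in the mutant one, beside 28.6% and 32.2% for Txnrd1 and 68.8% and 72.6% for Nqo1. Sparser members had higher shares, up to 100% for Slc7a11. A class of 363 control cells (5.95%) and 249 mutant cells (4.69%) had 5 or more Hmox1 UMIs. In the control library 2.75% of these cells were in the OC gate, compared with 13.2% of cells with 0 Hmox1 UMIs. In the mutant library the order was the other way, with 8.43% and 2.88%. Ctsk was at 15.2 CPM in Hmox1-high and 70.2 CPM in Hmox1-negative control cells, and at 33.9 CPM and 18.7 CPM in mutant cells. Mmp9 did not show this reversal, since it was lower in Hmox1-high cells of both libraries, at 24.1 CPM and 75.8 CPM in control cells and at 2.44 CPM and 6.66 CPM in mutant cells.

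The 9 other members had log2 ratios above 0 in the Hmox1-high cells of both libraries, those of Txnrd1 and Gsr below 1.5-fold. The share of all genes that were higher there was not computed, so whether this is particular to the members was not tested. Genes other than the members were higher too in the control and mutant library, such as Cd36 (log2 ratios 2.21 and 1.30), Cybb (1.38 and 0.51) and Csf1r (0.66 and 0.20). The cycling gene Mki67 was lower (-0.46 and -1.02). Slc7a11 was at 45.6 CPM in Hmox1-high and 6.36 CPM in Hmox1-negative control cells, a log2 ratio of 2.84 (2.66 to 3.02). The log2 ratio in the mutant library was 2.41 (2.25 to 2.56). Gsta3 had 2.67 (2.55 to 2.79) and 2.05 (1.92 to 2.17), Gclm 1.99 (1.952 to 2.026) and 1.25 (1.203 to 1.293), and Prdx1 1.97 (1.957 to 1.979) and 1.47 (1.460 to 1.486). Txnrd1 had the smallest value in the control library, at 0.31 (0.27 to 0.35), and Gsr the smallest in the mutant library, at 0.42 (0.33 to 0.51). The iron exporter Slc40a1 was at 27.1 CPM and 0.580 CPM in control cells, a log2 ratio of 5.55 (5.11 to 6.01). In mutant cells it was at 46.1 CPM and 4.04 CPM, a log2 ratio of 3.51 (3.27 to 3.75). Its level in Hmox1-negative cells was below 20 CPM in both libraries. Heme breakdown frees iron, which this exporter and the ferritins handle, and ferritin heavy chain Fth1 had 1.27 in the control library and 0.84 in the mutant one.

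**Figure D5:**
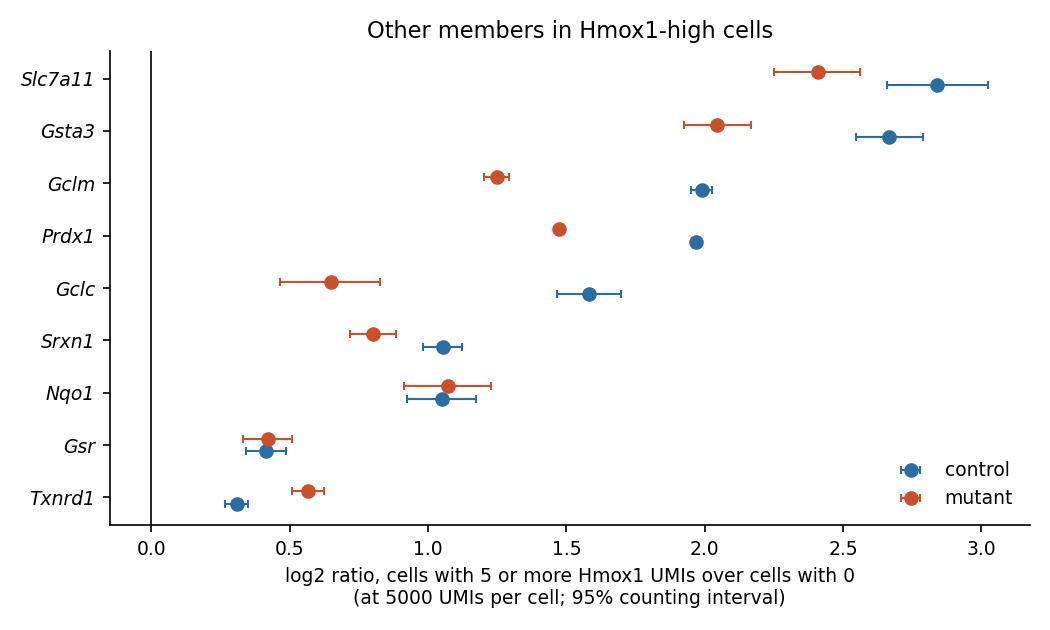
Log2 ratio of the level in cells with 5 or more Hmox1 UMIs over cells with 0, for the 9 other members in the control (blue) and mutant (red) library, with 95% counting intervals. All points lie above 0, with Slc7a11 and Gsta3 farthest from it, and Txnrd1 and Gsr nearest. The share of all genes above 0 was not computed.

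The wider redox system was followed with 72 genes in 8 lists. Counts, medians and the highest and lowest genes of these lists count only genes whose mean level reached the minimum of 20 CPM. Over all cells 55 passed, of which 11 were called higher, beside 12.6% of all genes, and 3 lower, beside 5.61%, with a median of 0.28. The 3 of 55 lower genes are thus near the background. In the OC gate 53 passed, of which 25 were called higher, beside 16.9% of all genes, and 3 lower, beside 11.5%, with a median of 0.57. In the control library, 21 of 56 were lower in the OC gate than outside, beside 8.51% of all genes, and 2 were higher, beside 5.19% (median -0.51). In the mutant library 2 of 56 were lower, near the background of 2.22%, and 0 higher, beside 2.67% (median -0.08).

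Among NRF2 regulators, Nfe2l2 itself was at 102 CPM in the control and 144 CPM in the mutant library, a log2 ratio of 0.50 (0.47 to 0.53). Its restraint Keap1 had 0.34 (0.29 to 0.38). The repressor Bach1 had 0.80 (0.76 to 0.85) and the KEAP1-sequestering autophagy receptor Sqstm1 0.90 (0.88 to 0.92), and both were called higher, as was the related factor Nfe2l1 with 0.64. Activator and repressor transcripts of the pathway thus both had positive log2 ratios. In the OC gate Nfe2l2 was at 77.7 CPM and 130 CPM (log2 ratio 0.75, 0.61 to 0.88), and Bach1 at 27.2 CPM and 62.4 CPM (log2 ratio 1.199, 0.985 to 1.411). Cul3 was the lowest regulator past the minimum over all cells, with 0.04 (-0.01 to 0.08).

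Among other NRF2 targets, the scavenger receptor Cd36 was called higher over all cells (log2 ratio 0.65), and the aldo-keto reductase Akr1b3 was the lowest gene past the minimum (-0.06). Glutathione enzymes had the only negative median over all cells, -0.14, and held 2 of the 3 genes called lower. These were Gsto1, an omega class transferase, with -0.92 (-0.96 to -0.88), and Mgst3, a microsomal transferase, with -0.65 (-0.68 to -0.62). Glrx, which reduces protein-glutathione disulfides, was the highest of the list at this minimum, with 0.57. In the OC gate, Gpx1 was called higher with 0.73 and Gsto1 stayed lower with -0.97.

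In the thioredoxin system, Prdx5 (0.76, 0.75 to 0.78) and the thioredoxin inhibitor Txnip (0.61) were called higher. Txn2, mitochondrial thioredoxin, was the lowest with -0.58, and Txn1, the cytosolic substrate of Txnrd1, had -0.47 (-0.48 to -0.47). Thioredoxin and its reductase thus both had negative log2 ratios. The peroxiredoxins did not share a sign. Prdx1, Prdx4 (0.07), Prdx5 and Prdx6 (0.28) had positive log2 ratios, and Prdx2 (-0.13) and Prdx3 (-0.44) negative ones. Txn1 also resembled Txnrd1 in state, at 2513 CPM outside and 2987 CPM in the OC gate of the control library. Sod1, which dismutates superoxide, had 0.73 (0.71 to 0.75), while the peroxide-removing catalase gene Cat had 0.03 over all cells and 0.94 (0.79 to 1.08) in the OC gate.

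Enzymes that supply NADPH had 0 of 5 genes called over all cells, with G6pdx highest (0.43) and Tkt lowest (-0.10) among those 5. In the OC gate Idh1 was at 29.2 CPM in control and 75.8 CPM in mutant cells, at a log2 ratio of 1.38 (1.18 to 1.57). In heme and iron handling, Blvra (0.74), which reduces the biliverdin that HMOX1 makes, and Fth1 (0.59) were called higher, and the transferrin receptor gene Tfrc lower (-0.64, -0.68 to -0.61). Tfrc was higher in the OC gate of the control library, at 145 CPM and 92.9 CPM outside. Past that minimum, the log2 ratios farthest from 0 over all cells were those of 2 subunits of the superoxide-making NADPH oxidase. Cybb, its catalytic subunit, had a log2 ratio of 1.52 (1.502 to 1.538) over all cells and 2.71 (2.61 to 2.81) in the OC gate, and Ncf1, a cytosolic subunit, 1.13 (1.10 to 1.16) and 2.47 (2.30 to 2.63). Ncf4 was the lowest gene of that list past the minimum, with 0.12. Neutrophils also express the oxidase subunits, and neutrophil markers differed as given above, a part that was not tested.

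Genes with the pattern most like the highest and the lowest member past the minimum of 20 CPM (Gsta3 and Txnrd1) over 8 pools (2 libraries by 4 states) were sought among 5218 genes. For Gsta3 they were Creg1 (r = 0.99), Gda (0.99) and Plekhm2 (0.99), and for Txnrd1 they were Brd2 (0.99), Cstf2 (0.99) and Aebp2 (0.99). The pools share libraries, so these values are a description.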

How the data were processed

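OC-induced BMDMs were measured by scRNA-Seq in 1 control and 1 LysM-Cre;Arid1afl/fl library and grouped by the genotype in the labels. For each barcode the authors deposited unnormalized UMI counts of every gene, from a 10x Genomics 3′ kit; the file headers name Cell Ranger 6.1.0. GRCm39 is named in the submitters' processing notes. Identifiers were placed with GENCODE M39 (31977 of 32544 matched). Whether counting used strand, and whether doublets were removed, is not given in the sources used here.

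Cells with at least 500 genes and at most 10% mitochondrial UMIs were kept (186 control and 202 mutant barcodes were left out), giving 163618835 and 131469887 UMIs. UMIs were summed per library and state and scaled to CPM, with exact Poisson intervals, exact conditional intervals for ratios and Clopper-Pearson intervals for shares, all at 95% and for counting error only. The interval of a difference of log2 ratios used the 4 counts. Gates used hypergeometric thinning to 5000 UMIs, and levels in a gate all UMIs of its cells. Doublets were kept, since the rule for cells has no such filter, and an alternative removed the 333 control and 275 mutant barcodes with the highest simulated-doublet scores. Other alternatives changed the scaling (TMM of edgeR 4.0.16, median of ratios, totals without mitochondrial and ribosomal protein genes), the weight of cells, the filters, the fold and the gate. Ratios and thinning were tested on simulated data. Python 3.11.15, NumPy 2.4.6, SciPy 1.17.1 and scikit-learn 1.9.0 were used.

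The members and lists were chosen with earlier results of these data known. Of the other redox genes, the text names the highest and lowest log2 ratio over all cells per list past the 20 CPM minimum, every gene called there, and Nfe2l2, Keap1 and Bach1. The similar genes are the 3 with the highest r of log2(CPM + 1) for the highest and the lowest member at the same minimum. Genes named beyond this rule (Slc40a1, Txn1, Cat, Gpx1, Idh1, Prdx2, Prdx3, Prdx4 and Prdx6) were chosen after their values were seen. So were the values of Fth1, Tfrc, Cd36, Cybb, Csf1r and Mki67 by class or state.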

Additional observations from a re-analysis of the deposited data

Results flagged for a closer look

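Members with opposite signs in the 2 libraries or states stood out. Hmox1 had a log2 ratio of OC gate over outside of -1.40 in control and 0.63 in mutant cells, and of mutant over control of 1.65 in the gate and -0.38 outside it. Nqo1 had a log2 ratio of mutant over control of 0.86 in the gate and -0.24 outside. With a gate on unthinned counts the values in the gate were 0.29 for Hmox1 and 0.072 for Nqo1, and without Acp5 in the gate that of Nqo1 was 0.49, all below 1.5-fold. Slc7a11 had a log2 ratio of OC gate over outside of -1.04 in the control library and 1.07 in the mutant one. Its mean in the control pair was 8.98 CPM, below the minimum of 20 CPM. Without Acp5 in the gate its mutant value was 0.57, below 1.5-fold. With 1 library per group these differences were not tested across samples. No group had 4 or more samples, so no sample could be set apart from its group.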

How the results depend on the processing

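No paired analysis was possible because each genotype had 1 library. Leaving out a replicate was not possible either. Among summary results, 169 recomputed values stayed close to the reported ones, 44 moved and 1 reversed; the cause was not tested. Over all cells the median log2 ratio of the members was 0.041 with TMM, 0.015 with the median of ratios, 0.14 with equal weight per cell, 0.17 with a minimum of 5 CPM or none, and -0.0047, the value of Gsr, with totals that lack mitochondrial and ribosomal protein genes. That last scaling moved the median of all genes from 0.02 to -0.09, and the share of calls that were higher from 69.2% to 51.6%; TMM gave 58.7% and the median of ratios 54.6%. In the OC gate the share went from 59.5% to 39.1%. The members called higher over all cells numbered 2 with 5 CPM or no minimum and 0 at 2-fold.

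Outside the OC gate the median was 0.045 with TMM, 0.024 with the median of ratios, 0.019 without mitochondrial and ribosomal genes, and 0.013 with the unthinned gate, and 1 member was called higher with equal weight, without doublets, at 5 CPM or no minimum, or with a gate at 2000 UMIs, of 5 UMIs, without Mmp9 or without Acp5. In the OC gate the median was 0.72 without mitochondrial and ribosomal genes, 0.43 with the unthinned gate and 0.69 without Acp5, and 4 members were called at 2-fold or with the unthinned gate.

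For the OC gate over outside in the control library, the median was -0.71 with TMM, -0.70 with the median of ratios, -0.53 without mitochondrial and ribosomal genes, -0.89 at 5 CPM or no minimum, -0.72 with a gate at 2000 UMIs and -0.24 with the unthinned gate, and 2 members were called lower at 2-fold and 1 (Prdx1) with the unthinned gate. In the mutant library 1 member (Slc7a11) was called higher with TMM, the median of ratios, 2-fold or the unthinned gate, and 0 without Acp5, a gate chosen after seeing the data; 2 (Prdx1 and Gsta3) were called lower with a gate at 2000 UMIs, which held 55 mutant cells. The log2 ratio of Prdx1 there was 0.067 with the unthinned gate. The median difference between states was 0.67 with equal weight, 0.48 with a gate of 5 UMIs, 0.34 with the unthinned gate and 0.33 without Acp5.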

Other observations

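Members were also counted in cells left out of the states, and in cells of the states with markers of other cell types. Prdx1 was at 5613 CPM in the 168 control cells and 4252 CPM in the 351 mutant cells below 5000 UMIs, and Hmox1 at 401 CPM and 210 CPM. In the 33 control and 124 mutant cells with at least 3 neutrophil marker UMIs, Hmox1 was at 662 CPM (600 to 729) and 398 CPM (373 to 424), Gsr at 280 CPM (240 to 324) and 272 CPM (252 to 294), and Gsta3 at 67.1 CPM and 73.9 CPM. These 3 members were higher there than over all other cells of the same library at that depth (229 CPM and 191 CPM, 142 CPM and 152 CPM, and 29.2 CPM and 48.2 CPM). Prdx1, Nqo1, Gclm and Slc7a11 were also higher there in both libraries. Txnrd1 and Srxn1 were lower in both, and Gclc was higher in control and lower in mutant cells. Intervals overlapped for Slc7a11 and Gclc in both libraries, for Gclm in the mutant and for Srxn1 in the control library. In the 48 control and 154 mutant cells with class II markers, Hmox1 was at 119 CPM and 134 CPM.

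Several low genes of the lists differed by more than 1.5-fold but had means below 20 CPM. Slc40a1 had a log2 ratio of mutant over control of 1.44 (1.29 to 1.59), Chac1, which degrades glutathione, 3.03 (2.56 to 3.55), and Ephx1, an epoxide hydrolase, -2.04 (-2.30 to -1.79).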
